A study of Mus musculus with 24 samples.

Results

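The 51 genes described here encode the mouse chemokine ligands (34 genes) and chemokine receptors (17 genes) that could be read singly on the array. They were taken by symbol, as every gene named Ccl, Cxcl, Cx3cl, Xcl, Ccr, Cxcr, Cx3cr or Xcr with a number, among the 19938 genes that have a row of their own in the deposited table. RNA came from the left lung lobe of male C57Bl/6N Tac mice kept free of specific pathogens. WT mice were compared with Scnn1b-Tg mice, which carry a transgene for the beta subunit of the epithelial sodium channel under the Scgb1a1 promoter of airway club cells and model dehydration of the airway surface. Both genotypes were sampled at PND (postnatal day) 0, 3, 10 and 42 with no treatment, 3 arrays for each age and genotype, 24 in all. By the labels 23 arrays held RNA pooled from 2 animals and Scnn1b-Tg PND 42 replicate 3 that of 1 animal, while the study's methods give another pool size. The promoter drives the transgene in club cells, while the RNA measured was that of the whole lobe.

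Chemokines are small secreted proteins that guide leukocytes along concentration gradients by binding receptors coupled to inhibitory G proteins. CXC ligands with a Glu-Leu-Arg (ELR) motif act on Cxcr2 and, in part, on Cxcr1 and attract neutrophils. Inflammatory CC ligands attract monocytes and macrophages through Ccr1 and Ccr2, the eotaxins attract eosinophils through Ccr3, and Ccl17 and Ccl22 attract type 2 T cells through Ccr4. Homeostatic ligands such as Ccl19 and Cxcl12 place cells in lymphoid tissue, marrow and developing organs. In the lung these signals come from airway epithelium, alveolar macrophages, dendritic cells and stroma. Many of the genes lie side by side. In the gene order of the mouse reference, 29 of the 51 stood directly beside another of the 51 among protein-coding genes, in 9 runs, the longest being Ccl2, Ccl7, Ccl11, Ccl12, Ccl8 and Ccl1 on chromosome 11. A second run on chromosome 11 held Ccl5, Ccl9, Ccl6, Ccl3 and Ccl4.

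Values are RMA (robust multi-array average) levels on a log2 scale, so a difference of 1 is 2-fold. A gene was called when the limma test of its row, fitted over all 21789 rows with 1 gene, had p no higher than 0.05 after Benjamini-Hochberg adjustment with a change of 2-fold or more, and all adjusted p values below come from that fit. Array medians ran from 4.79 to 5, so a level near that is that of a middling row and lower levels are close to the dim end of the array, where fold changes are compressed. By that measure 33 of the 51 genes had a mean over 5 in at least 1 of the 8 groups, and 18 did not (60.7% of all rows did). The 18 dim genes included the receptors Ccr3, Ccr4, Ccr6, Ccr8, Ccr9, Ccr10, Cxcr5, Cxcr6 and Xcr1. Scnn1b, the gene carried by the transgene, was higher in every Scnn1b-Tg array than in any WT array of its age. The group means differed by 2.93 to 3.29 log2. The lung epithelium markers (8 of 8 measured) averaged 9.09 to 9.57 per array in the 8 groups. In whole-lung RNA, fewer cells of a type and less RNA per cell cannot be told apart.

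WT PND 3 replicate 2 stood apart from its group in these genes. Measured as the root mean square difference from its group mates over the 51 genes, it lay 1.397 log2 away, while the arrays of the other 7 groups lay 0.284 to 0.620 away. Over all rows it lay 0.339 away, within the span of the other arrays (0.218 to 0.405). Its Scnn1b level was 7.52, against 6.79 and 6.92 in the other WT PND 3 arrays and 10.04 to 10.65 in Scnn1b-Tg PND 3. Compared with the mean of the other 2 WT PND 3 arrays, 16 of the 51 genes (31.4%) were at least 1 log2 higher in it, against 0.881% of all rows, and 0 of the 51 were at least 1 log2 lower.

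**Figure D1:**
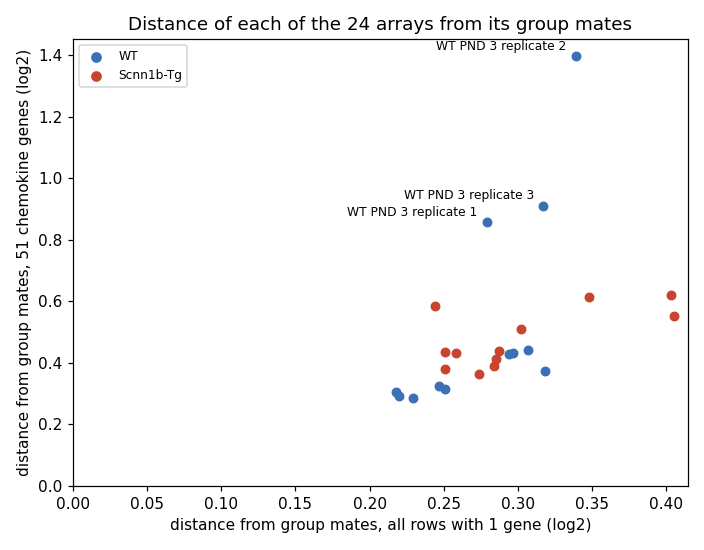
Distance of each of the 24 arrays from the other arrays of its age and genotype, as the root mean square log2 difference over all 21789 rows with 1 gene (x axis) and over the 51 chemokine genes (y axis). Each point is an array, blue for WT and red for Scnn1b-Tg, and WT PND 3 replicate 2 sits at 1.397 on the y axis.

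The 16 genes came from several roles: inflammatory, ELR and interferon-inducible ligands, but also Ccl20, Cxcl13, the type 2 ligand Ccl11 and the receptors Ccr1 and Ccr2. Cxcl10, an interferon-inducible attractant of T and NK cells, read 8.80 in WT PND 3 replicate 2, against 4.30 and 4.49 in replicates 1 and 3. Ccl3, a macrophage inflammatory ligand, read 9.57 against 5.72 and 5.55. Cxcl5, an ELR ligand made by lung epithelium, read 7.72 against 4.11 and 4.09. For these 3 genes and for Cxcl2 (7.51 against 4.26 and 3.80), that array was the highest of all 24. Ccl20, the epithelial ligand of Ccr6, read 6.74 against 3.87 and 3.76, inside the range of the Scnn1b-Tg PND 3 arrays. The neutrophil marker list averaged 6.92 in this array against 6.26 and 5.66, and the macrophage list 7.41 against 6.87 and 7.03. The part of these cells in the result was not tested. A smaller excursion of the same genes was seen in Scnn1b-Tg PND 0 replicate 2, where Cxcl10 read 5.90 (others 4.25 and 4.26), Cxcl5 5.56 (3.64 and 3.98) and Cxcl2 5.36 (3.99 and 4.12). All results below were therefore also computed without WT PND 3 replicate 2, an alternative added after the data had been seen where the comparison does not hold that array. That array was singled out by its high values of the 16 genes. Leaving it out thus lowers the WT PND 3 mean and the pooled spread of those genes by construction. Their results without it are a description and no independent test. The genes of this paragraph were named after their values had been seen.

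**Figure D2:**
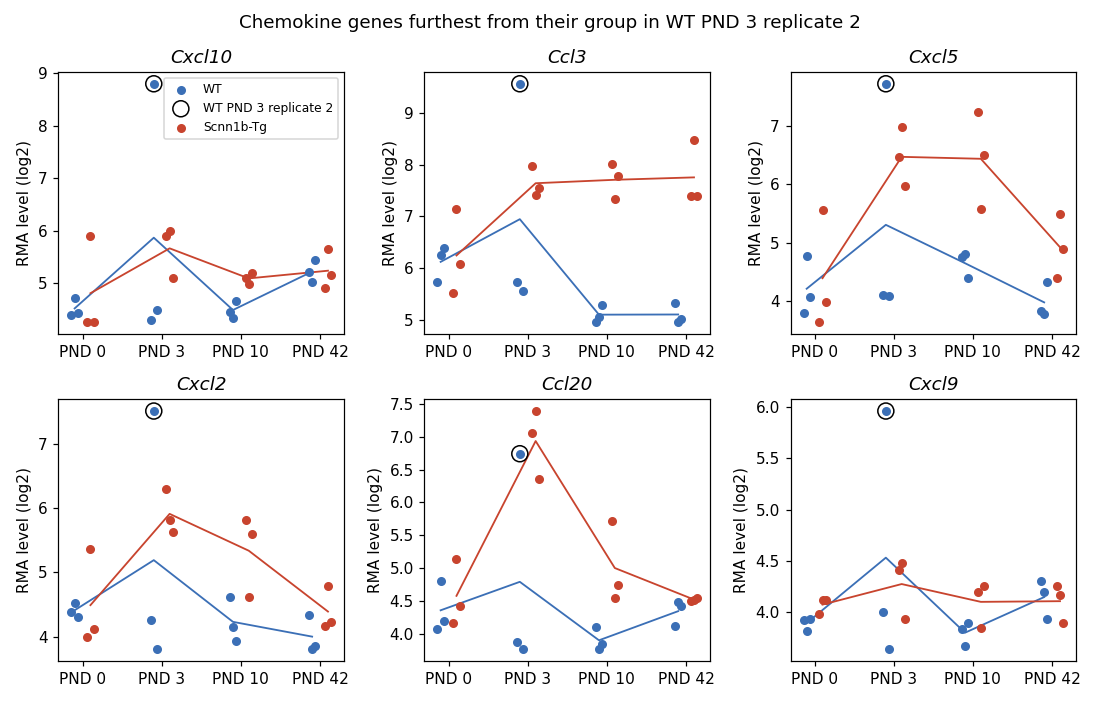
RMA level (log2, y axis) of 6 chemokine genes by age (x axis), 1 point per array with lines through the group means, blue for WT and red for Scnn1b-Tg. The ring marks WT PND 3 replicate 2, which reads 8.80 for Cxcl10 and 9.57 for Ccl3 while the other 2 WT PND 3 arrays sit at or below 5.72 for all 6 genes.

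Promoters of 3 of these genes are shown because they were high in that array, and they were chosen with their motif matches known. RefSeq promoters (build GRCm38.p6, 250 bases before to 50 after the start of transcription, 300 bases each) were found for 37 of the 51 genes, 39 promoters in all. Capitals mark letters that match the NF-kB motif, read on both strands.
Ccl20, chr1:83116516-83116815, plus strand: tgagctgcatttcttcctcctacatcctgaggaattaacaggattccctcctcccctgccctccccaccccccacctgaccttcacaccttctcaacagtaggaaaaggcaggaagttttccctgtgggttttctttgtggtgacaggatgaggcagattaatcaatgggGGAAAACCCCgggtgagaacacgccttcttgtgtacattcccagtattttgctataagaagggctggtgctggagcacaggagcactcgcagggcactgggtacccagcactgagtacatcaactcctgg
Cxcl2, chr5:90903649-90903948, plus strand: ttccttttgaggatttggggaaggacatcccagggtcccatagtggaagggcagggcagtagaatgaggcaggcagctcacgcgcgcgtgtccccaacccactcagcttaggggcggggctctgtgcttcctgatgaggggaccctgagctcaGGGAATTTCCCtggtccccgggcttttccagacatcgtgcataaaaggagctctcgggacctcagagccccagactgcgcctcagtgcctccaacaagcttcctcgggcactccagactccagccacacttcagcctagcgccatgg
Cxcl10, chr5:92348840-92349139, minus strand: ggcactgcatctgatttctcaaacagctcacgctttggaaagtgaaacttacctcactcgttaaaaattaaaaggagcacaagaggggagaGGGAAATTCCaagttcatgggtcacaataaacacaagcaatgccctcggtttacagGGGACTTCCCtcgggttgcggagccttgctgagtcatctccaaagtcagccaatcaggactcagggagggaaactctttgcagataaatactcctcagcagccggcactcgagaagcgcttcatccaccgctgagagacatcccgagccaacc
The NF-kB motif matched once upstream of the start of Ccl20, at overlapping positions on both strands of Cxcl2, and at 2 separate places in Cxcl10. Of the 39 chemokine promoters 8 (20.5%) held such a match, against 4.51% of all 32841 promoters of the same length. The 8 genes were Ccl9, Ccl20, Ccr3, Ccr6, Cxcl1, Cxcl2, Cxcl3 and Cxcl10. Of the 16 genes that were at least 1 log2 higher in WT PND 3 replicate 2, 11 had a promoter in the table. The motif matched 6 of these and did not match 5, namely Ccl3, Cxcl9, Ccr1, Cxcl13 and Ccr2. A match of letters is a description of the sequence and does not show binding.

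Chemokine genes that differed between the genotypes were higher in Scnn1b-Tg lungs, and most of them did so at PND 42. At PND 0, 0 of 51 genes were called (background over all rows 0.0138% higher and 0% lower in Scnn1b-Tg). At PND 3, 0 were called (background 0.00918% higher and 0.00918% lower). At PND 10, 1 gene was called higher (1.96%, background 0.106%) and 0 lower (background 0.0459%). At PND 42, 4 genes were called higher (7.84%, background 0.326%) and 0 lower (background 0.0138%). The median difference of the 51 genes was 0.12 log2 at PND 10 and 0.15 log2 at PND 42, where the median of all rows was 0.00 at both ages, and 40 of the 51 lay above 0 at PND 42. More of their variance lay between ages than between genotypes. For the median gene of the 51, ages held 42.6% of the variance, genotypes of the same age 11% and arrays of the same group 33.9%, where the median row of the array had 62.2%, 6.4% and 28.8%. These are shares of the raw sum of squares, not adjusted for degrees of freedom. The shares of ages and genotypes therefore also hold part of the spread between arrays, and they were not tested. Without WT PND 3 replicate 2 the counts became 0, 5, 2 and 5 genes higher at PND 0, 3, 10 and 42, with backgrounds of 0.0138%, 0.142%, 0.17% and 0.376%. That array was singled out by its chemokine values, so these counts beside their backgrounds are a description and no independent test.

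**Figure D3:**
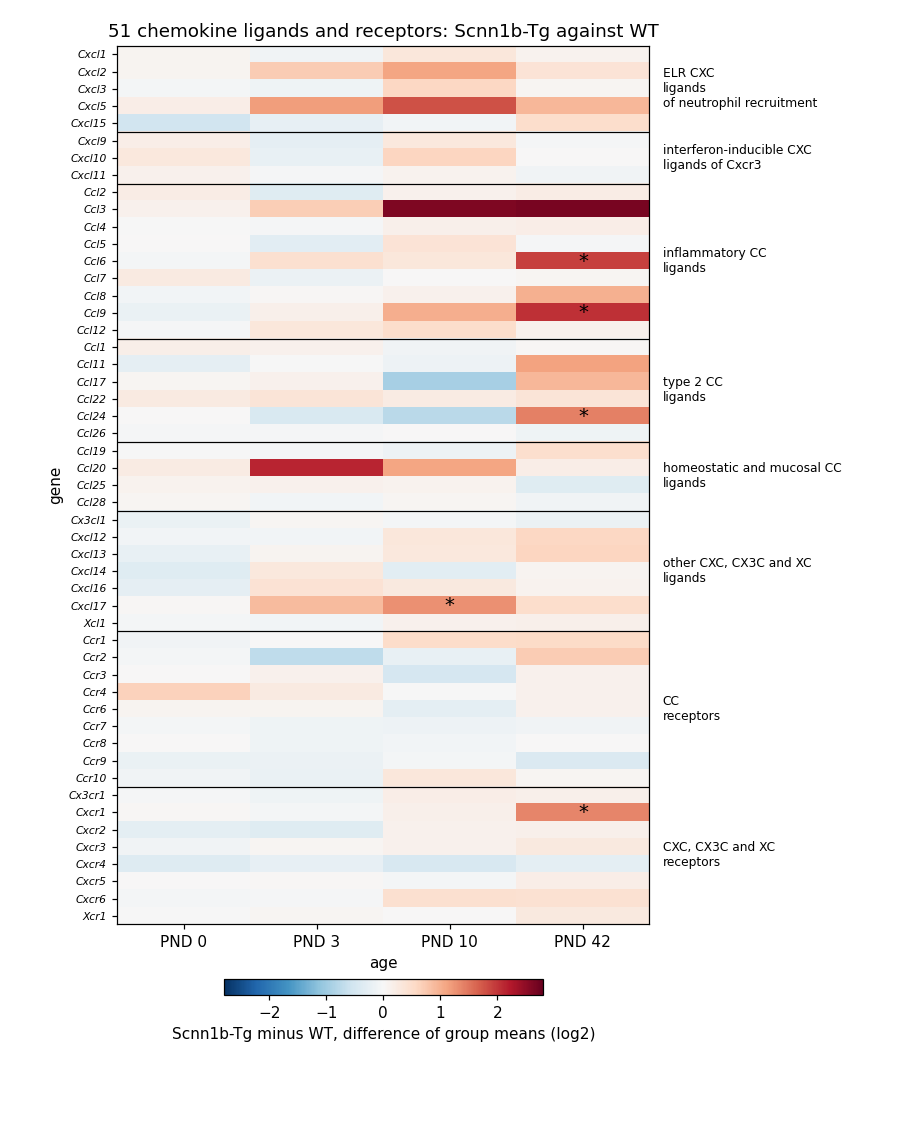
Difference between Scnn1b-Tg and WT group means (log2, colour scale, red where Scnn1b-Tg is higher) for 51 chemokine genes (rows, grouped by role) at 4 ages (columns), n = 3 arrays per group. Asterisks mark the 5 called differences: Cxcl17 at PND 10 and Ccl6, Ccl9, Ccl24 and Cxcr1 at PND 42.

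Among the inflammatory CC ligands, Ccl9 and Ccl6 were higher in Scnn1b-Tg lungs at PND 42. Both are mouse CC ligands that act through Ccr1 and are made by myeloid cells. Ccl9 read 6.66, 6.71 and 6.59 in the WT arrays and 8.28, 9.15 and 8.69 in the Scnn1b-Tg arrays at PND 42. The groups lay far apart, and the difference was 2.05 log2 (SE 0.32, 4.15-fold, adjusted p = 0.000908). This call held in all 12 alternatives tried. Ccl6 read 9.90, 9.63 and 9.76 in WT and 11.59, 12.22 and 11.21 in Scnn1b-Tg, again with no overlap. Its difference was 1.91 log2 (SE 0.34, 3.75-fold, adjusted p = 0.00397). Without Scnn1b-Tg PND 42 replicate 2, the highest array, the difference was 1.63 with an adjusted p of 0.0517. At PND 10 Ccl9 already read 8.50, 7.91 and 8.22 in Scnn1b-Tg against 7.49, 7.0 and 7.07 in WT, a difference of 1.02 log2 (SE 0.32) that did not pass (adjusted p = 0.191) but was called with the compared groups alone. Ccl6 differed by 0.31 log2 (SE 0.34) at that age. The difference between genotypes in the change from PND 10 to PND 42 was 1.60 log2 (SE 0.48, adjusted p = 0.183) for Ccl6 and 1.03 log2 (SE 0.45, adjusted p = 0.435) for Ccl9, and neither passed.

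The promoters of Ccl6 and Ccl9 are shown because these neighbouring genes were both called at PND 42. Capitals mark matches to the TATA box motif TATAAA or the NF-kB motif on either strand.
Ccl6, chr11:83593038-83593337, minus strand: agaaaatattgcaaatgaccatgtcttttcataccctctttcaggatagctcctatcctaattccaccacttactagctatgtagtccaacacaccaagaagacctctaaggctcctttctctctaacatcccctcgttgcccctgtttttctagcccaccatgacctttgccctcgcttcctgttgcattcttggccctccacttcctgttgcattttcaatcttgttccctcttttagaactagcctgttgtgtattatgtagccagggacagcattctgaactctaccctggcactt
Ccl9, chr11:83578587-83578886, minus strand: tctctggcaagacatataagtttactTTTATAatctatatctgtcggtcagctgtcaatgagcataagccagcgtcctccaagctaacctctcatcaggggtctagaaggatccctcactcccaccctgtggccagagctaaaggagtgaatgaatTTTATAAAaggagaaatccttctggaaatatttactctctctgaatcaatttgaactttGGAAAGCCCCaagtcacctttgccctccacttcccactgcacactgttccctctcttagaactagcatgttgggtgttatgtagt
The Ccl9 window held TATAAA letters at 2 places, 1 of them with overlapping matches on both strands, and 1 NF-kB match, and the Ccl6 window held none of the 3 motifs searched. The longest run of letters that the windows share on the same strand was 13 bases, gccctccacttcc. TATAAA was found in 28.2% of the chemokine promoters and 13.6% of all promoters.

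Ccl3, which lies beside Ccl6, had the largest genotype difference of the 51 genes at PND 10 and at PND 42 without passing the test. It read 8.01, 7.34 and 7.78 in Scnn1b-Tg against 4.95, 5.06 and 5.28 in WT at PND 10, and 7.40, 8.48 and 7.39 against 5.32, 4.96 and 5.02 at PND 42. The Scnn1b-Tg arrays were above every WT array at both ages. The difference was 2.61 log2 at PND 10 (SE 0.65, adjusted p = 0.0797), and at PND 42 it was 2.66 log2 (SE 0.65, adjusted p = 0.053). The fit pools the spread of all 8 groups. Without WT PND 3 replicate 2 the same differences had an SE of 0.32 and adjusted p values of 0.000164 at PND 10 and 4.15e-05 at PND 42. Ccl3 was among the genes by which that array was singled out, so these p values are no independent test. With the compared groups alone Ccl3 was also called at PND 10. That fit leaves out the same array, so the call is no independent test either. The other genes of the run, Ccl5 and Ccl4, differed by -0.04 (SE 0.27) and 0.19 (SE 0.24) at PND 42, and neither passed. Ccl8, a monocyte ligand in the other run on chromosome 11, read 5.22, 5.30 and 5.66 in Scnn1b-Tg and 4.54, 4.06 and 4.63 in WT at PND 42. The groups did not overlap, and the difference of 0.99 log2 (SE 0.14, adjusted p = 0.000273) passed the test but fell just short of 2-fold. Of the 9 inflammatory CC ligands, 8 lay above 0 at PND 42 and 9 at PND 10, with medians of 0.21 and 0.31 log2. Ccl2, the main attractant of Ccr2 monocytes, differed by 0.21 (SE 0.28) at PND 42 and did not pass.

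**Figure D4:**
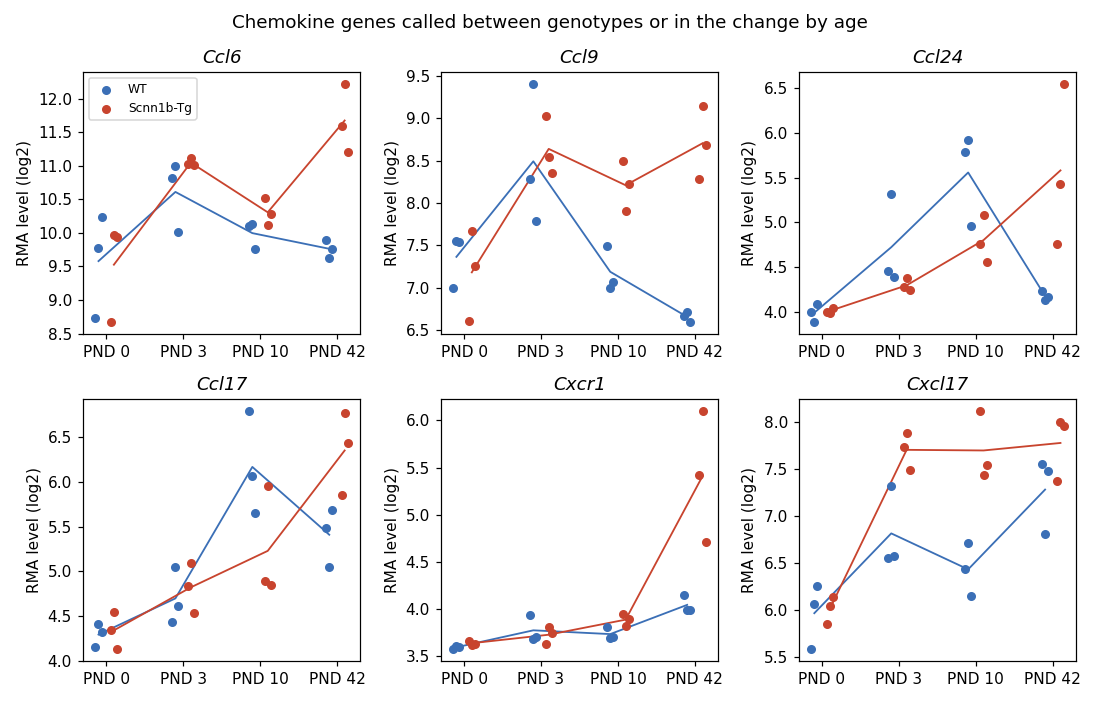
RMA level (log2, y axis) by age (x axis) of the 6 chemokine genes called between genotypes or in the change from PND 10 to PND 42, 1 point per array with lines through the group means, blue for WT and red for Scnn1b-Tg. At PND 42 the Scnn1b-Tg arrays of Ccl9 sit between 8.28 and 9.15, above the WT arrays at 6.59 to 6.71.

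Markers of macrophages were also higher in Scnn1b-Tg lungs at PND 42. The mean of the macrophage list (12 of 12 measured) was 8.27 to 8.94 in the Scnn1b-Tg arrays and 7.55 to 7.70 in the WT arrays at PND 42, all 12 markers lay above 0 and 4 were called (Cd68, Mrc1, Itgax and Chil3). At PND 10 the list ran from 7.50 to 7.81 against 7.19 to 7.32, with Cd68 called. With age the list and the ligands took different courses in WT. The WT mean of the list was 7.10, 7.27 and 7.62 at PND 3, 10 and 42. Over these ages the WT mean of Ccl9 was 8.49, 7.19 and 6.66, and that of Ccl6 10.61, 10.00 and 9.77. In Scnn1b-Tg the list was 7.15, 7.64 and 8.60, Ccl9 8.64, 8.21 and 8.71, and Ccl6 11.05, 10.30 and 11.67. The neutrophil list ran from 5.38 to 5.75 against 4.96 to 5.50 at PND 42, where 5 of 12 markers lay above 0 and Cd177 alone was called. Neutrophil lists at PND 10 overlapped (5.39 to 6.10 against 5.40 to 5.59), and Cd177 was called there too. Other lists were apart between genotypes at PND 10 with 0 markers called, and lower in Scnn1b-Tg. The endothelium list ran from 7.41 to 7.71 against 7.79 to 7.94 in WT, the mesenchyme list from 8.77 to 9.04 against 9.21 to 9.29, and the B cell list from 4.79 to 5.08 against 5.28 to 5.42. The mast cell list ran from 5.14 to 5.21 against 5.22 to 5.33. The B cell list was apart at PND 3 as well (4.75 to 5.06 against 5.15 to 5.31). At PND 42 the lung epithelium list was apart and higher in Scnn1b-Tg (9.52 to 9.57 against 9.41 to 9.51). In both of these 0 markers were called. The part of these cells, or of macrophage or neutrophil number, in the ligand differences was not tested.

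The type 2 ligands Ccl24 and Ccl17 changed differently between PND 10 and PND 42 in the 2 genotypes. Ccl24 (eotaxin-2), a ligand of the eosinophil receptor Ccr3, read 5.79, 5.92 and 4.96 in WT at PND 10 and dropped to 4.23, 4.13 and 4.16 at PND 42. In Scnn1b-Tg it read 4.76, 5.08 and 4.56 at PND 10 and 4.76, 5.43 and 6.55 at PND 42. The genotypes overlapped at PND 10 and were apart at PND 42, where the WT arrays were tightly grouped and the Scnn1b-Tg arrays spread over more than 1 log2. The difference at PND 10 was -0.76 log2 (SE 0.31, adjusted p = 0.429). The fall in WT was -1.38 log2 (SE 0.31, adjusted p = 0.00155), and at PND 42 the Scnn1b-Tg mean exceeded the WT mean by 1.41 log2 (SE 0.31, 2.66-fold, adjusted p = 0.0263). The change over that interval differed between genotypes by 2.17 log2 (SE 0.44, adjusted p = 0.0355). Of the 51 genes, Ccl24 and Ccl17 were the 2 called in this test (3.92%, background 0.225%).

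Ccl17 (TARC), the dendritic cell ligand of Ccr4, read 6.79, 6.06 and 5.65 in WT and 4.89, 5.95 and 4.85 in Scnn1b-Tg at PND 10. At PND 42 it read 5.49, 5.05 and 5.69 in WT and 5.85, 6.77 and 6.43 in Scnn1b-Tg. WT was thus the higher group at PND 10, with overlap, and Scnn1b-Tg at PND 42, without overlap. Neither difference alone passed (-0.94 log2, adjusted p = 0.189, and 0.94 log2, adjusted p = 0.164, SE 0.29 each). The change between these ages differed between genotypes by 1.88 log2 (SE 0.41, adjusted p = 0.0496).

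These type 2 calls depended on single arrays and on the fit. Ccl24 at PND 42 had an adjusted p of 0.0939 with no moderation of the variances and 0.208 with the compared groups alone. The highest Ccl24 array, Scnn1b-Tg PND 42 replicate 3, is by its label from 1 animal. The study's methods give another pool size. Ccl24 at PND 42 was no longer called without any 1 of WT PND 42 replicates 1, 2 or 3 or Scnn1b-Tg PND 42 replicates 2 or 3, where its difference ran from 0.93 (without Scnn1b-Tg replicate 3) to 1.49 and its adjusted p from 0.0643 to 0.108. Its interval difference was lost without WT PND 10 replicate 1 or 2, any WT PND 42 array, Scnn1b-Tg PND 10 replicate 1 or 3, or Scnn1b-Tg PND 42 replicate 2 (1.99 to 2.24 log2, adjusted p 0.0617 to 0.13). For Ccl17 it was lost without those arrays or without Scnn1b-Tg PND 42 replicate 3 (1.57 to 2.02 log2, adjusted p 0.0777 to 0.161). The sign did not turn in any of these.

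The Ccl17 promoter is shown because this gene was called in the difference between genotypes. Capitals mark matches to TTCNNNNGAA, the STAT6 type, which reads the same on either strand.
Ccl17, chr8:94810203-94810502, plus strand: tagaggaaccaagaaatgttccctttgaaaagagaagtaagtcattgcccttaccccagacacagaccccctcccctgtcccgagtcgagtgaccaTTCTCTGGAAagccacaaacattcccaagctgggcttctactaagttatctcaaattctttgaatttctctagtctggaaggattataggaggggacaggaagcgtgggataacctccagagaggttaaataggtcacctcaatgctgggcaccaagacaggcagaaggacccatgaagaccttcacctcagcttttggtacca
The motif matched 1 place. It was found in 1 of the 39 chemokine promoters (2.56%) and in 6.95% of all promoters. The table holds no Ccl24 entry.

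Of the other type 2 ligands, Ccl11 (eotaxin-1) read 7.19, 7.02 and 6.68 in Scnn1b-Tg and 5.56, 6.41 and 5.57 in WT at PND 42. The groups were apart, but the difference of 1.12 log2 (SE 0.39, adjusted p = 0.255) did not pass. Ccl22, the second Ccr4 ligand, differed by 0.35 (SE 0.15) and did not pass. Their receptors Ccr3 and Ccr4 stayed at dim levels, and differed by 0.12 (SE 0.12) and 0.12 (SE 0.23) at PND 42. At PND 10 Ccr3 read 4.05, 4.16 and 4.18 in Scnn1b-Tg and 4.52, 4.66 and 4.62 in WT, without overlap and not called. Its WT mean was 3.77 at PND 3, 4.60 at PND 10 and 3.86 at PND 42. Of 6 eosinophil markers 4 could be measured. Their mean was 4.63 to 5.09 in Scnn1b-Tg and 4.72 to 5.02 in WT at PND 42, near the dim end of the array, and 0 were called. The dendritic cell list, whose cells are a source of Ccl17, ran from 5.23 to 5.29 against 4.97 to 5.15 at PND 42 and from 4.41 to 4.54 against 4.55 to 4.64 at PND 10, with 0 of 6 markers called at either age. The macrophage list ran from 8.27 to 8.94 against 7.55 to 7.70 at PND 42 and from 7.50 to 7.81 against 7.19 to 7.32 at PND 10. The part of dendritic cells, macrophages or eosinophils in the Ccl17 and Ccl24 values was not tested.

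Cxcr1 was the receptor called. It is a receptor of ELR ligands on neutrophils, and read 5.42, 6.10 and 4.71 in Scnn1b-Tg against 4.15, 3.99 and 3.99 in WT at PND 42. The WT arrays lay at the dim end and the Scnn1b-Tg arrays were all above them. The difference was 1.36 log2 (SE 0.19, 2.58-fold, adjusted p = 0.000338), and with the compared groups alone its adjusted p was 0.0975. At PND 0, 3 and 10 its group means ran from 3.59 to 3.88 in both genotypes. Cxcr2, its neighbour on chromosome 1 and the main neutrophil receptor, read 4.55, 5.52 and 4.91 against 4.84, 5.14 and 4.55 at PND 42, with overlap and a difference of 0.15 (SE 0.26) that did not pass. Of the 8 CXC, CX3C and XC receptors 7 lay above 0 at PND 42, with a median of 0.24 log2. Of the 9 CC receptors measured, 6 lay above 0 and 0 were called. Ccr2, the monocyte receptor, differed by 0.71 (SE 0.33) and Ccr1, the receptor of Ccl3, Ccl6 and Ccl9, by 0.54 (SE 0.32). Neither passed.

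Cxcl17, a mucosal ligand of airway and gut epithelium, was the gene called at PND 10. It read 8.12, 7.44 and 7.54 in Scnn1b-Tg and 6.44, 6.71 and 6.15 in WT, with no overlap. The difference was 1.27 log2 (SE 0.24, 2.41-fold, adjusted p = 0.0185). It was lost without WT PND 10 replicate 1 (1.27 log2, adjusted p = 0.0818), WT PND 10 replicate 3 (1.13, 0.0989) or Scnn1b-Tg PND 10 replicate 1 (1.06, 0.237). At PND 3 Cxcl17 read 7.74, 7.89 and 7.49 in Scnn1b-Tg and 6.55, 7.32 and 6.58 in WT, apart but not called (0.89 log2, SE 0.24, adjusted p = 0.341). Without WT PND 3 replicate 2 that difference was 1.14 log2 (SE 0.25, adjusted p = 0.0302) and was called. At PND 42 WT had risen to 7.56, 6.81 and 7.48, Scnn1b-Tg read 7.38, 8.0 and 7.96, and the groups overlapped. The lung epithelium list averaged 9.09 to 9.26 in Scnn1b-Tg and 9.18 to 9.29 in WT at PND 10, where 4 of its 8 markers lay above 0 (range -0.66 to 0.63 log2) and 0 were called. Its part in the Cxcl17 difference was not tested.

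At PND 3 the result turned on 1 array. Ccl20 read 7.05, 7.39 and 6.36 in Scnn1b-Tg and 3.87, 6.74 and 3.76 in WT. Replicate 2 of WT lay among the Scnn1b-Tg arrays and the other 2 lay far below them. The difference was 2.14 log2 (SE 0.50, adjusted p = 0.235) with it and 3.11 log2 (SE 0.31, 8.66-fold, adjusted p = 2.98e-05) without it. The same was seen for Cxcl5, which read 6.46, 6.98 and 5.97 in Scnn1b-Tg and differed by 1.16 (SE 0.67, adjusted p = 0.76) with that array and 2.37 (SE 0.47, adjusted p = 0.0217) without it. Cxcl2 read 6.29, 5.81 and 5.63 in Scnn1b-Tg, and its difference went from 0.72 (SE 0.59, adjusted p = 0.898) to 1.88 (SE 0.35, adjusted p = 0.0181). Ccl3 went from 0.69 (SE 0.65, adjusted p = 0.929) to 2.01 (SE 0.35, adjusted p = 0.0144). So 5 genes, these 4 and Cxcl17, were called without the array and 0 with it. The array was singled out by high values of these 4, so their p values without it are no independent test. Cxcl17 also read higher in it than in the other WT PND 3 arrays, and the same holds for its p value. Neutrophil markers averaged 5.89 to 6.43 in Scnn1b-Tg and 5.66 to 6.92 in WT at PND 3, overlapping with or without that array.

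The ELR ligands of neutrophils were led by Cxcl5 at the later ages. Cxcl5 read 7.23, 5.58 and 6.5 in Scnn1b-Tg and 4.75, 4.81 and 4.39 in WT at PND 10. All Scnn1b-Tg arrays were higher, but the difference of 1.79 log2 (SE 0.67, adjusted p = 0.341) did not pass in the 8-group fit. It did with the compared groups alone, a fit that leaves out WT PND 3 replicate 2. Cxcl5 was among the genes by which that array was singled out, so this is no independent test. Of the 5 genes, 4 lay above 0 at PND 10 (median 0.59) and 5 at PND 42 (median 0.39), and 0 were called at either age. Cxcl15 (lungkine), a secreted product of lung epithelium, was the exception at PND 10 with -0.07 (SE 0.23). The 3 interferon-inducible ligands had medians of 0.30 log2 at PND 10 and -0.04 at PND 42, with 0 called. Of the homeostatic and mucosal ligands 4 were measured and 0 called at PND 10 or PND 42, and Ccl20 differed by 1.10 (SE 0.50, adjusted p = 0.53) at PND 10. Among the other CXC, CX3C and XC ligands Cxcl12, the ligand of Cxcr4 that holds progenitors in marrow, read 8.51, 8.33 and 8.13 in Scnn1b-Tg and 7.79, 7.80 and 7.67 in WT at PND 42. The groups were apart, and the difference of 0.57 log2 (SE 0.13, adjusted p = 0.0372) passed the test but not the 2-fold threshold.

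Between birth and PND 3, 3 genes rose in WT (5.88%, background 1.96%) and 0 fell (background 7.79%), and in Scnn1b-Tg 6 rose (11.8%, background 2.26%) and 0 fell (background 8%). The median change of the 51 was 0.32 log2 in WT and 0.27 log2 in Scnn1b-Tg, against 0.06 and 0.07 over all rows. Marker lists moved over the same days. The mean of the endothelium list went from 8.56 to 7.48 in WT and from 8.41 to 7.49 in Scnn1b-Tg, and that of the mesenchyme list from 9.11 to 8.58 and from 8.99 to 8.47. The T cell list went from 4.05 to 4.62 and from 4.01 to 4.53, the eosinophil list from 4.16 to 4.69 and from 4.13 to 4.57, and the macrophage list from 6.85 to 7.10 and from 6.71 to 7.15. Their part in the chemokine changes was not tested. Ccl6 read 8.73, 9.78 and 10.23 at PND 0 and 10.82, 10.99 and 10.02 at PND 3 in WT, with overlap. In Scnn1b-Tg it went from 8.67, 9.97 and 9.94 to 11.02, 11.11 and 11.01, without overlap. The WT rise was 1.03 log2 with SE 0.34 and adjusted p = 0.0172, and that of Scnn1b-Tg 1.52 log2 with SE 0.34 and adjusted p = 0.000925. For Ccl9 the WT rise was 1.13 log2 with SE 0.32 and adjusted p = 0.00626, and that of Scnn1b-Tg 1.46 log2 with SE 0.32 and adjusted p = 0.000744. For Ccl11 the WT rise was 1.09 log2 with SE 0.39 and adjusted p = 0.0266, and that of Scnn1b-Tg 1.35 log2 with SE 0.39 and adjusted p = 0.00717. Both genotypes thus shared the direction of these 3 genes. The WT calls rested on few arrays. Without WT PND 0 replicate 1 the changes were 0.60, 0.95 and 0.88 for Ccl6, Ccl9 and Ccl11, and without WT PND 3 replicate 2 they were 0.84, 0.67 and 0.71. Under either, 0 genes were called in WT, where 9.79% and 11.3% of all rows were called in either direction. Without WT PND 3 replicate 1, Ccl6 (0.93) and Ccl11 (0.85) were lost, and without WT PND 3 replicate 3 the WT count was 6, where 9.22% of all rows were called in either direction.

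The genes called in Scnn1b-Tg but not in WT were Ccl20, Cxcl5 and Cxcl17. Ccl20 went from 4.17, 5.14 and 4.42 at PND 0 to 7.05, 7.39 and 6.36 at PND 3, a rise of 2.36 log2 (SE 0.50, adjusted p = 0.000628). Cxcl17 went from 5.85, 6.04 and 6.14 to 7.74, 7.89 and 7.49, a rise of 1.70 log2 (SE 0.24, adjusted p = 7.35e-06). In both genes every PND 3 array was above every PND 0 array. Cxcl5 rose by 2.07 log2 (SE 0.67, adjusted p = 0.014), and was no longer called without Scnn1b-Tg PND 0 replicate 1 (1.70), PND 0 replicate 3 (1.87) or PND 3 replicate 2 (1.82). With the replicate number as a block Cxcl2 was called as well, which made 7 genes. Without WT PND 3 replicate 2 Ccl3 and Cxcl2 were called as well, which made 8 genes (15.7%, background 2.3%). Both were among the genes by which that array was singled out, so this count is no independent test. Without Scnn1b-Tg PND 0 replicate 2 the count was 9, where 9.7% of all rows were called in either direction. The test of the difference between genotypes in this interval called 0 of 51 genes (background 0%). Without WT PND 3 replicate 2 it called Ccl20 (2.90 log2, SE 0.42, adjusted p = 0.0208), 1 of 51 genes against 0.00459% of rows. Ccl20 was among the genes by which that array was singled out.

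From PND 3 to PND 10, 1 gene rose and 2 fell in WT (backgrounds 1.05% and 0.239%), and 0 rose and 2 fell in Scnn1b-Tg (backgrounds 0.817% and 0.271%). Ccl11 changed by -2.0 log2 in WT (SE 0.39, adjusted p = 0.0027) with a change of -2.14 log2 for Scnn1b-Tg (SE 0.39, adjusted p = 0.00376). In WT it went from 7.68, 7.96 and 5.91 to 5.36, 5.05 and 5.13, and in Scnn1b-Tg from 6.41, 7.42 and 7.69 to 5.09, 5.13 and 4.89. The ages did not overlap in either genotype, and the call held in all 12 alternatives of each. In WT, Ccl17 rose from 4.44, 5.05 and 4.61 by 1.47 log2 (SE 0.29, adjusted p = 0.00301). In WT, Ccl9 changed from 8.28, 9.41 and 7.79 by -1.30 log2 (SE 0.32, adjusted p = 0.0162), a call that was lost without WT PND 3 replicate 2 (-0.85), WT PND 10 replicate 2 (-1.21) or WT PND 10 replicate 3 (-1.25). In Scnn1b-Tg, Ccl20 reached 5.71, 4.55 and 4.74, a change of -1.93 log2 (SE 0.50, adjusted p = 0.0347). That call was lost without Scnn1b-Tg PND 3 replicate 1 or 2 or Scnn1b-Tg PND 10 replicate 2 or 3 (-1.87 to -1.70, adjusted p 0.129 to 0.143). Without WT PND 3 replicate 3, WT had 6 calls, where 1.64% of all rows were called in either direction. The difference between genotypes in this interval was called for 0 of 51 genes (background 0.00918%).

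Between PND 10 and PND 42, as the lung matured, 2 genes rose and 1 fell in WT (backgrounds 1.7% and 3.84%), and 8 rose and 0 fell in Scnn1b-Tg (15.7%, background 1.79%, and background 3.38%). Cxcl14, an epithelial and stromal ligand of homeostatic type, went from 5.44, 5.16 and 5.22 to 7.58, 7.56 and 7.64 in WT and from 5.32, 5.08 and 4.54 to 7.58, 8.03 and 7.40 in Scnn1b-Tg. The WT rise was 2.32 log2 with SE 0.21 and adjusted p = 8.2e-08, and that of Scnn1b-Tg 2.69 log2 with SE 0.21 and adjusted p = 1.77e-08. Ccl5 (RANTES), a ligand made by T and NK cells, went from 6.02, 5.71 and 5.98 to 8.25, 7.93 and 8.02 in WT, and from 6.33, 6.09 and 6.48 to 8.37, 8.61 and 7.10 in Scnn1b-Tg. Its WT rise was 2.16 log2 with SE 0.27 and adjusted p = 3.12e-06, and that of Scnn1b-Tg 1.72 log2 with SE 0.27 and adjusted p = 4.28e-05. For both genes the ages did not overlap, and the calls held in all 12 alternatives in each genotype. The NK cell list rose beside Ccl5, from 4.37 to 4.44 at PND 10 to 4.91 to 5.32 at PND 42 in WT and from 4.28 to 4.46 to 4.77 to 5.28 in Scnn1b-Tg. The T cell list went from 4.82 to 4.87 at PND 10 to 4.96 to 5.35 at PND 42 in WT, and in Scnn1b-Tg from 4.75 to 5.03 to 5.03 to 5.28. The means of the macrophage list (WT 7.27 to 7.62, Scnn1b-Tg 7.64 to 8.60) and of the dendritic cell list (WT 4.60 to 5.04, Scnn1b-Tg 4.48 to 5.27) were higher at PND 42 as well. The part of these cells in the Ccl5 change was not tested.

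The remaining calls of this interval in Scnn1b-Tg were Ccl11, Ccl19, Ccl8, Cxcr1, Ccl6 and Ccl17. Ccl11 rose by 1.93 log2 (SE 0.39, adjusted p = 0.000685), to levels within its PND 3 range, and Ccl8 rose by 1.14 log2 (SE 0.14, adjusted p = 2.69e-06). Cxcr1 rose by 1.52 log2 (SE 0.19, adjusted p = 5.24e-06) and Ccl6 by 1.37 log2 (SE 0.34, adjusted p = 0.00373). Ccl17 rose by 1.12 log2 (SE 0.29, adjusted p = 0.00517), and fell short of 2-fold without Scnn1b-Tg PND 10 replicate 1 (0.95), PND 10 replicate 3 (0.93) or PND 42 replicate 2 (0.91). Ccl19, the ligand of Ccr7 that guides dendritic cells and naive T cells, went from 4.52, 4.78 and 4.46 to 6.27, 6.69 and 5.26, a rise of 1.49 log2 (SE 0.22, adjusted p = 2.66e-05). In WT it went from 4.90, 4.56 and 4.72 to 5.66, 5.49 and 5.68, a rise of 0.89 log2 (SE 0.22, adjusted p = 0.00368) that passed without reaching 2-fold. Ccl19 has 5 rows on the array, and the other 4 gave 1.12 to 1.27 log2 in WT and 1.56 to 1.85 log2 in Scnn1b-Tg, so on those rows the WT rise was over 2-fold too (adjusted p 6.54e-05 to 0.000327). Ccr7 itself rose under 2-fold in both genotypes, by 0.78 log2 in WT (SE 0.16, adjusted p = 0.000687) with 0.83 log2 for Scnn1b-Tg (SE 0.16, adjusted p = 0.000348). Cxcl5 was also called in Scnn1b-Tg without WT PND 3 replicate 2, with a change of -1.51 log2 (adjusted p = 0.00907). In the 8-group fit the test of the difference between genotypes in this interval called Ccl17, and with it Ccl24. With the compared groups alone it called Ccl6 and neither of them.

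**Figure D5:**
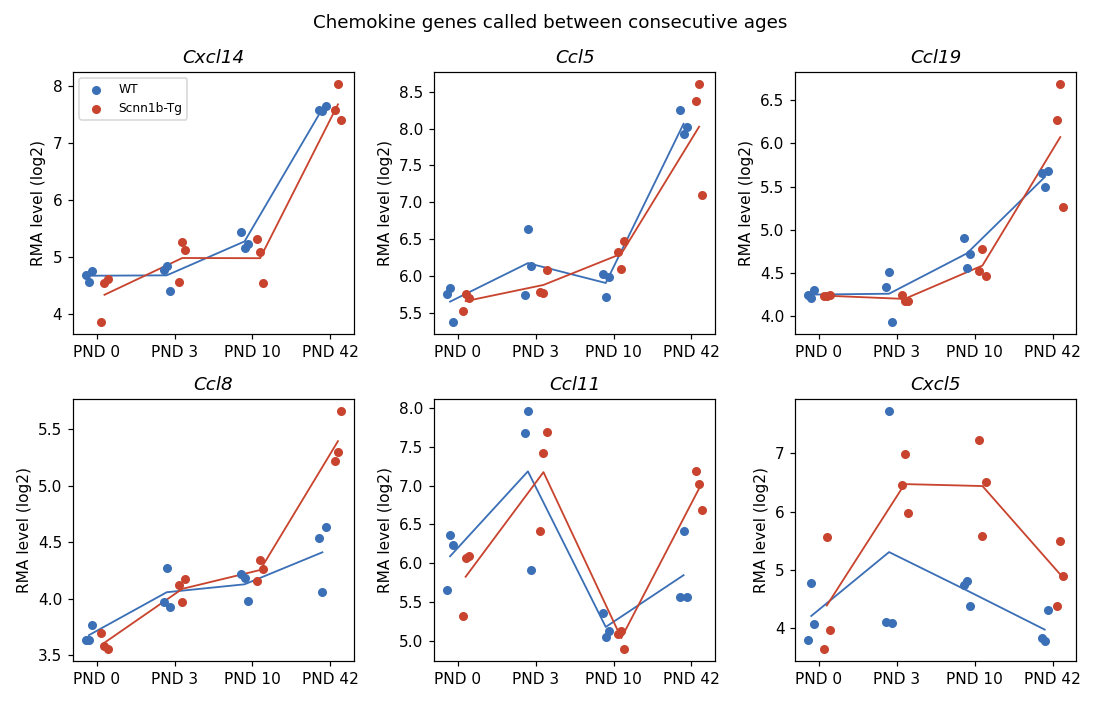
RMA level (log2, y axis) by age (x axis) of 6 chemokine genes called between consecutive ages, 1 point per array with lines through the group means, blue for WT and red for Scnn1b-Tg. Cxcl14 and Ccl5 rise from PND 10 to PND 42 in both genotypes, and both genotypes show a fall of Ccl11 after PND 3.

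Of the 7 atypical receptors and platelet chemokines (Ackr1, Ackr2, Ackr3, Ackr4, Ccrl2, Pf4 and Ppbp), which scavenge or add to chemokines, 0 were called at any age, with medians of -0.04 log2 at PND 10 and -0.16 at PND 42. The widest difference was that of Ppbp at PND 42 (-0.93 log2, SE 0.28, adjusted p = 0.161). Of 28 genes of receptor signalling 25 were measured and 0 were called between genotypes at any age, with a median of 0.10 at PND 42. In the change from PND 10 to PND 42, 1 of the 25 was called as different between genotypes (background 0.225%). It was Plcb2, a phospholipase C activated by G protein subunits, with 1.04 log2 (SE 0.22, adjusted p = 0.041). This call was not recomputed in the alternatives. Plcb2 ran from 5.54 to 5.80 in Scnn1b-Tg and from 4.68 to 4.97 in WT at PND 42, a difference of 0.86 log2 (SE 0.15, adjusted p = 0.00377) that passed the test and was under 2-fold. Rgs1, a brake on chemokine receptor G proteins, differed by 0.60 log2 (SE 0.11, adjusted p = 0.00461) at PND 42, past the test and under 2-fold.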

How the data were processed

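Left lung lobes of 8 groups (2 genotypes, 4 ages, n = 3 arrays each) were measured on Affymetrix Mouse Gene 1.0 ST arrays. The authors summarized probe intensities by RMA, per the labels in Partek 6.5, and deposited log2 levels for 35556 rows, and these log2 values were used as deposited. Of the rows, 21789 name 1 gene, 1621 several and 12146 none by the platform annotation, and only the first were tested. Where a gene had several rows (2 of the 51), the one with the highest mean over all arrays gave its value. limma 3.58.1 in R 4.3.3 fitted 8 group means (16 residual degrees of freedom), with p values adjusted by Benjamini-Hochberg within each comparison. The genotypes were compared at every age, consecutive ages were compared within a genotype, and the genotypes' changes were compared with each other. Nothing states that the pools of a group came from separate litters, so p values measure the spread between these pools. The number of arrays limits the precision. Per-array values are given by rule for genes called between genotypes or in the difference of their changes, and for up to 12 genes with the largest called change between ages. All other genes given with values, such as Ccl3, Cxcl2, Cxcl10, Cxcl12 and the receptors other than Cxcr1, were chosen after their values were seen. The genes, lists, tests and motifs were chosen with earlier results of these data known. Alternatives were no moderation, the compared groups alone, the replicate number as a block, dim rows left out, 1 row per gene, repeated quantile normalization, no fold threshold and leaving out each array. The fit was tested on simulated data. Same-numbered arrays deviated together at PND 0 (correlations 0.30, 0.15 and 0.29) and in Scnn1b-Tg between PND 0 and PND 3 (0.12, 0.17 and 0.17) and in no other comparison were all 3 correlations over 0.1. Nothing in the labels ties the numbers to a litter or day.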

Additional observations from a re-analysis of the deposited data

Results flagged for a closer look

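The change from PND 10 to PND 42 differed between the genotypes for 2 of the 51 genes by the test of that difference (limma, Benjamini-Hochberg adjustment). For Ccl24 it was 2.17 log2 more positive in Scnn1b-Tg (SE 0.44, adjusted p = 0.0355), with a fall in 3 of 3 WT arrays below every PND 10 array. For Ccl17 it was 1.88 log2 more positive (SE 0.41, adjusted p = 0.0496). Over 18 alternatives the values ran from 1.68 to 2.58 log2 for Ccl24 (10 lost the call) and from 1.57 to 2.24 log2 for Ccl17 (11 lost it).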

How the results depend on the processing

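The 32 called differences of single genes were recomputed in 400 alternatives, of which 339 kept the call, 61 lost it and 0 turned sign. The number of the 51 genes called changed as follows. At PND 10 (1 gene) it was 0 with no moderation, 4 with the compared groups alone and 2 with dim rows left out. The compared groups alone leave out WT PND 3 replicate 2 at that age, so that count is a description and no independent test. Between PND 0 and PND 3, WT (3 genes) had 1 with the compared groups alone. Between PND 3 and PND 10, Scnn1b-Tg (2 genes) had 1 with no moderation, and for the difference between genotypes from PND 10 to PND 42 (2 genes) it was 0 with no moderation and 1, Ccl6, with the compared groups alone. With no fold threshold the counts were 13, 5 and 10 for the successive intervals in WT and 13 and 15 for the first and last in Scnn1b-Tg. Leaving out 1 array at a time gave 0 at PND 0, 0 to 5 at PND 3, 0 to 2 at PND 10 and 3 to 5 at PND 42, 0 to 6, 2 to 6 and 3 to 4 for the intervals in WT, 5 to 9, 1 to 3 and 7 to 9 for those in Scnn1b-Tg, and 0 to 1, 0 and 0 to 3 for the differences between genotypes. Over all rows the same step called 0.00918% to 0.0321%, 0.00459% to 0.353%, 0.0459% to 0.271% and 0.207% to 0.519% at the 4 ages. For the intervals it called 9.22% to 11.3%, 1.07% to 1.64% and 5.1% to 6.14% in WT. In Scnn1b-Tg those shares were 9.33% to 11.3%, 0.707% to 1.16% and 4.97% to 6.07%. For the differences between genotypes they were 0% to 0.00918%, 0.00459% to 0.0964% and 0.0918% to 0.413%. Shares of all rows under the other alternatives were not computed. With the replicate block the counts were 0, 0, 1 and 5 at the 4 ages, 3, 3 and 3 in WT, 7, 2 and 8 in Scnn1b-Tg, and 0, 0 and 2 for the differences, so the pairing moved no count by over 1.5 times. Single calls lost with no moderation were Cxcl17 at PND 10 (adjusted p = 0.0802), Ccl24 at PND 42 (0.0939), Ccl11 in the first WT interval (0.0548), Ccl9 in the second (0.0548), Ccl20 in the second Scnn1b-Tg interval (0.106), and the differences between genotypes of Ccl17 (0.143) and Ccl24 (0.121). With the compared groups alone, those lost were Ccl24 (0.208) and Cxcr1 (0.0975) at PND 42, Ccl11 (0.111) and Ccl6 (0.0703) in the first WT interval, Ccl9 in the second (0.0832), and the differences of Ccl17 (0.0998) and Ccl24 (0.0709). The causes were not tested. There were 3 arrays per group, and 18 of the 51 genes were dim in every group.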

Other observations

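The Ccl21 and Ccl27 genes have near-identical copies and share array rows that name several genes, so they are not among the 51. The 4 Ccl21 rows name 7 genes each. On the brightest of them the group means were 9.48, 10.20, 9.26 and 9.91 log2 in WT and 9.17, 10.24, 9.70 and 9.79 log2 in Scnn1b-Tg at PND 0, 3, 10 and 42, with SDs from 0.05 to 0.65 (n = 3). The 3 Ccl27 rows name 5 genes each, and the brightest had group means from 4.67 to 5.49 log2. These rows were not tested.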
